A study of Homo sapiens with 6 samples.

Results

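The genes described here are 51 cytoplasmic translation initiation and elongation factors, with a few of their regulators, chosen as a functional list and found by symbol in the deposited count table. All 51 were found among 65746 genes, 50 were tested among 11525, and EEF1G was listed at 0 in every library. They comprise 9 factors of start codon selection and subunit joining, the 3 subunits of eIF2, the 5 subunits of eIF2B, the 13 subunits of eIF3, 12 genes of the eIF4 group, 2 poly(A)-binding proteins and 7 genes of elongation. RNA came from SU-DHL-8, 1 human diffuse large B-cell lymphoma line of wild-type genotype grown in RPMI 1640 medium with 10% FBS. Cells received 15 µM β-sitosterol (ST), a plant sterol, or an equal concentration of the solvent DMSO, for 24 h. Each arm had 3 libraries, labelled as replicate experiments of 1 cell line, and p-values measure the spread between these samples.

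Total counts lay between 31314446 and 35565620 in the DMSO libraries and between 26453281 and 29360142 in the ST libraries. The 3 ST libraries were alike, with a correlation of log2 CPM of 0.994 for each pair, whereas DMSO replicate 2 stood apart from the other DMSO libraries at 0.982 and 0.972. The median SD of a gene was 0.275 log2 units in DMSO and 0.0862 in ST. Summed CPM of the 7 B cell markers was 1850 to 2509 in DMSO and 2281 to 2445 in ST, although single markers moved in both directions (CD79A rose from 371 ± 48.2 to 767 ± 31.3 CPM and PAX5 fell from 660 ± 43.5 to 208 ± 9.36 CPM, SD, n = 3). The 4 T cell markers summed to 0.0627 CPM at most, with CD3E, CD3G and CD2 at 0. Myeloid markers summed to 4.61 to 7.01 CPM in DMSO and 6.14 to 8.40 CPM in ST, and epithelial and stromal markers to 0.0577 to 0.157 and 0.643 to 1.82 CPM. The part of these other markers in the results was not tested.

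Protein synthesis begins when eIF2, loaded with GTP and initiator tRNA, joins the small ribosomal subunit together with eIF1, eIF1A, eIF3 and eIF5. The eIF4 proteins bind the capped end of the mRNA and bring it to that complex, and eIF2B recharges eIF2 with GTP after each round. eEF1 then delivers aminoacyl-tRNAs and eEF2 moves the ribosome along the message. Many mRNAs for elongation factors and ribosomal proteins begin with a run of pyrimidines, the TOP motif, through which the kinase mTOR and the protein LARP1 control their translation. In lymphoma cells this machinery is studied as a drug target.

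The annotated transcription starts of the members were read because the TOP class is defined by the first transcribed letters. Windows of 30 bases, 10 before and 20 from the annotated start, were taken from RefSeq (GRCh38.p14) for the 41 members that the sequence table holds. A pyrimidine start was counted where the first transcribed letter was C and at least 5 letters in all, from that C on, were C or T on the transcribed strand. At least 1 window of 11 members (26.8%) met it, against 1429 of 35116 windows (4.07%), 1404 of 27305 genes (5.14%) and 690 of 9086 tested genes (7.59%). The sequences below are printed 5′ to 3′ with the pyrimidine run in capitals. The first 4 belong to elongation and eIF4 factors of the TOP class and the next 4 to eIF3 subunits. EEF2K and ABCF1, which fell in ST, are shown as members whose window has no such run.
EEF2, chr19:3985444-3985473, minus strand: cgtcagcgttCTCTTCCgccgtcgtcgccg
EEF1A1, chr6:73521013-73521042, minus strand: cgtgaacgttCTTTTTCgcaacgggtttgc
EEF1B2, chr2:206159885-206159914, plus strand: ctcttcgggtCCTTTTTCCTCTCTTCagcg
EIF4B, chr12:53006446-53006475, plus strand: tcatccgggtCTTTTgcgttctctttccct
EIF3F, chr11:7987327-7987356, plus strand: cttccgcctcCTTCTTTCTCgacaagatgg
EIF3K, chr19:38619178-38619207, plus strand: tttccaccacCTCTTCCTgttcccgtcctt
EIF3M, chr11:32583821-32583850, plus strand: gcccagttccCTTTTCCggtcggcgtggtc
EIF3D, chr22:36529147-36529176, minus strand: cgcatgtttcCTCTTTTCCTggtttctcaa
EEF2K, chr16:22206268-22206297, plus strand: gcccgcttctgctcaacctagaccagcccc
ABCF1, chr6:30571432-30571461, plus strand: cgccggaagcggaaatagcaccgggcgccg

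The other members with such a start were EIF2A, EIF2S3 and EIF4A2. EEF1G, which also belongs to the TOP class, had a window without such a run, and so had another window of EEF1B2. EIF2S2, EIF3A, EIF3E, EIF3G, EIF3H, EIF3L, EIF4EBP1, EEF1D, PABPC1 and PABPC4 had no entry. Of the 11 members with the start, 3 rose (EEF1B2, EIF3K and EIF3M) and 1 fell (EEF2), with a median log2 fold change of 0.01. Of the 29 tested members whose windows lacked it, 8 rose and 7 fell, with a median of 0.10. Among all 690 tested genes with the start, 139 rose (20.1%) and 169 fell (24.5%), against 17.9% and 22.4% of the 8396 without it, and the medians were -0.06 and -0.05. The other 7 members with the start did not pass, and among them EIF2S3 stood at -0.33 and EIF4B at -0.27 log2 units, both with arms that did not overlap.

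In the comparison of ST with DMSO, 14 of the 50 tested members rose and 11 fell at an adjusted p under 0.05 (edgeR quasi-likelihood test, Benjamini-Hochberg over all 11525 genes). The background was high: 40.8% of all tested genes were called, 19.0% higher and 21.8% lower, and the members, with 28.0% higher and 22.0% lower, lay near it in falls and above it in rises. The median log2 fold change was 0.05 over the members and -0.04 over all genes. In 30 of the 50 members the 3 ST libraries did not overlap the 3 DMSO libraries, against 56.1% of all tested genes. In bulk RNA, fewer cells with a transcript and less of it per cell cannot be told apart, and only relative levels are measured.

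Without DMSO replicate 2, all 25 calls were kept and 14 were added, giving 20 members higher and 19 lower (78.0%), against a background of 56.6% (26.4% higher, 30.3% lower). That library was the highest of the DMSO group for 22 members and the lowest for 17, and lay more than 1.5-fold from the mean of the other DMSO libraries for 12. Some added calls depend on which DMSO library is left out. EIF2A, EIF3B, EIF3D, EIF4H, EIF5A, EIF5B and EEF1D had the opposite sign without DMSO replicate 3, where they did not pass. On the authors' TPM scale, tested with limma-trend on log2(TPM + 1), 1 member (EEF1E1) was called higher and 9 lower, so the rises of the other 13 members below did not pass on that scale, and the split over all genes moved from 2185 higher and 2512 lower to 713 and 2226. The falls of EEF2 and EIF4A3 did not pass there either (limma-trend adjusted p = 0.0812 and 0.114). The median over all genes lay at -0.19 on that scale. The rows of the TPM table summed to 39.5% of a full TPM total in DMSO replicate 2 and to 57.0% to 69.2% in the others.

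**Figure D1:**
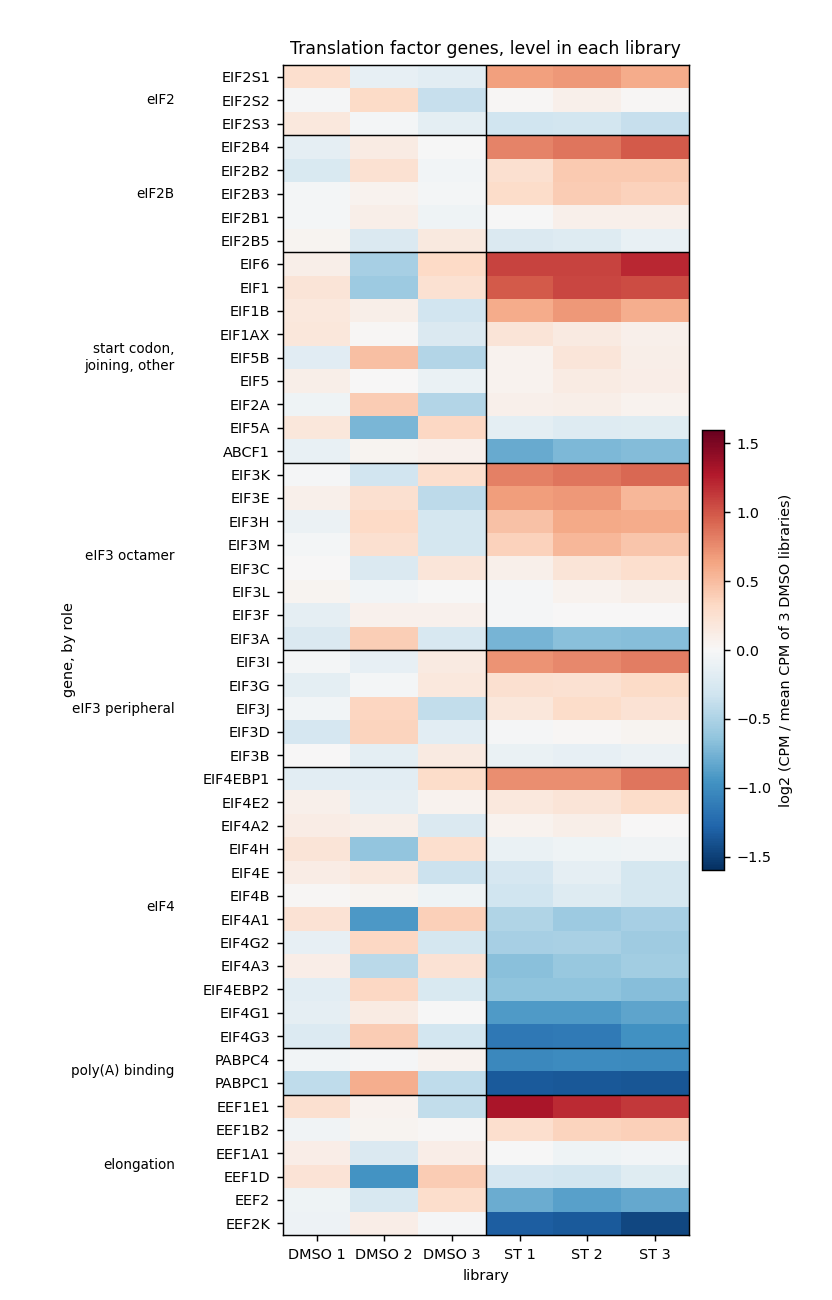
Level of the 50 tested members in each of the 6 libraries (columns), as log2 of CPM over the gene's mean in DMSO, with members in rows ordered by role. The 3 ST columns resemble each other row by row, and the middle DMSO column (replicate 2) departs from its neighbours in many rows, such as PABPC1, EEF1D and EIF5A.

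The eIF2B complex, the exchange factor that recharges eIF2 and the target of the integrated stress response, had 2 of its 5 subunits higher in ST and 0 lower, a share called of 40.0% against 40.8% of all genes. With DMSO replicate 2 left out, 3 were higher and 1 lower (56.6% of all genes called). Their median log2 fold change was 0.35, over all 6 libraries, and there no subunit fell at an unadjusted p under 0.05 or in DESeq2. For such counts, here and below, the share of all genes at an unadjusted p or in DESeq2 is not given. EIF2B4 (chr2:27364352-27370486, minus strand, GRCh38), the delta subunit, which belongs to the regulatory part, stood at 41.3, 50.1 and 45.3 CPM in DMSO replicates 1 to 3 and at 79.0, 82.8 and 90.0 CPM in ST. Every ST library lay well above every DMSO library. The log2 fold change was 0.88 ± 0.12 (SE; edgeR adjusted p = 0.00103).

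EIF2B3, the gamma subunit of the catalytic pair, stood at 49.5, 52.5 and 49.4 CPM in DMSO and at 61.8, 66.8 and 65.1 CPM in ST. The arms were narrow and did not overlap, a difference of 0.35 ± 0.11 log2 units (edgeR adjusted p = 0.0301). The call was lost when DMSO replicate 1 or any 1 ST library was left out (edgeR adjusted p from 0.0768 to 0.146), with no filter on low counts (edgeR adjusted p = 0.0769) and after removal of the length trend described below (edgeR adjusted p = 0.0595). The log2 fold change was 0.30 in the last of these and 0.33 to 0.38 with single libraries left out. EIF2B5, the catalytic epsilon subunit, stood at 128, 105 and 138 CPM in DMSO and at 106, 107 and 114 CPM in ST, so the arms overlapped. Its log2 fold change of -0.18 ± 0.13 did not pass (edgeR adjusted p = 0.294), and without DMSO replicate 2 it was called lower at -0.29 (edgeR adjusted p = 0.0107). EIF2B2 stood at 0.37 log2 units (edgeR adjusted p = 0.0806) and EIF2B1, the alpha subunit, at 0.05.

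Reads of EIF2B4 per read of EIF2B5 were 0.323, 0.476 and 0.328 in DMSO and 0.746, 0.773 and 0.789 in ST. All ST ratios were thus above all DMSO ratios, a difference of 1.06 in mean log2 ratio between genes of the same complex. The exact permutation p was 0.1, two-sided, which is the smallest that 3 libraries against 3 allow, here and for each ratio given below. The pairs were picked without a rule set in advance. Each ratio restates changes that are also given gene by gene and is no separate test of them.

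Of the 3 subunits of eIF2, the carrier of initiator tRNA, 1 rose and 0 fell in edgeR (at an unadjusted p under 0.05, 1 rose and 1 fell, and in DESeq2 1 rose and 0 fell). The share called in edgeR was 33.3%, against 40.8% of all genes. EIF2S1 encodes the alpha subunit, which the stress kinases phosphorylate. It measured 139, 105 and 103 CPM in DMSO and 182, 187 and 175 CPM in ST, with no overlap and a change of 0.65 ± 0.14 log2 units (edgeR adjusted p = 0.00755). EIF2S2, the beta subunit, had a log2 fold change of 0.04. EIF2S3, the gamma subunit that binds GTP and tRNA, stood at -0.33 ± 0.12 (edgeR adjusted p = 0.0572). EIF2S3 was called lower without DMSO replicate 2 (edgeR adjusted p = 0.00702) and after removal of the length trend (-0.57, edgeR adjusted p = 0.00738).

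Among the 9 factors of start codon selection, subunit joining and ribosome binding, 3 rose (33.3%) and 1 fell (11.1%). Of all genes 19.0% rose and 21.8% fell, and the share called was 44.4% against 40.8% of all genes. EIF1, the gatekeeper of start codon accuracy, measured 528, 306 and 542 CPM in DMSO and 907, 962 and 944 CPM in ST. DMSO replicate 2 was lowest, and every ST library exceeded every DMSO library. Expression differed by 1.03 ± 0.21 log2 units (edgeR adjusted p = 0.00497), and 0.80 without DMSO replicate 2. Its paralogue EIF1B rose from 28.8 ± 4.90 to 44.4 ± 1.77 CPM (SD, n = 3), a change of 0.62 ± 0.15 log2 units (edgeR adjusted p = 0.0112). That call was lost without ST replicate 2 (edgeR adjusted p = 0.0563) and after removal of the length trend (log2 fold change 0.29, edgeR adjusted p = 0.228).

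EIF6, which binds the large subunit and keeps it from joining the small one too early, stood at 280, 183 and 328 CPM in DMSO and at 559, 559 and 607 CPM in ST. The highest DMSO library lay far below the lowest ST library. The log2 fold change was 1.13 ± 0.20 (edgeR adjusted p = 0.00286), and 0.91 without DMSO replicate 2. ABCF1, an ATP-binding cassette protein that associates with eIF2 and ribosomes, moved the other way, from 215, 242 and 246 CPM to 134, 142 and 145 CPM. Its arms were tight and separate, a difference of -0.74 ± 0.11 log2 units (edgeR adjusted p = 0.00136).

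EIF5A, the hypusine-containing factor that helps ribosomes through difficult peptide bonds, measured 794, 422 and 884 CPM in DMSO and 629, 606 and 615 CPM in ST. The ST values fell between those of the DMSO libraries, and the log2 fold change of -0.18 ± 0.24 did not pass (edgeR adjusted p = 0.57). Without DMSO replicate 2 it was -0.45 (edgeR adjusted p = 1.53e-04), and without DMSO replicate 3 it was 0.06 (edgeR adjusted p = 0.847). EIF5, the GTPase activator of eIF2, stood at 0.10, EIF1AX at 0.14, EIF2A, an alternative carrier of initiator tRNA, at 0.08, and EIF5B, the joining GTPase, at 0.12 log2 units, none of them past the threshold. EIF2A and EIF5B were called higher without DMSO replicate 2, at 0.33 and 0.43 (edgeR adjusted p = 0.0187 and 0.00183). Reads of EIF1 per read of EIF5 were 1.14, 0.707 and 1.36 in DMSO and 2.02, 2.04 and 2.03 in ST, nearly constant in the treated cells.

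The eIF3 complex, the largest initiation factor and the scaffold that holds the others on the small subunit, had 5 of 13 subunits higher (38.5%) and 1 lower (7.69%) by edgeR, against 19.0% and 21.8% of all genes, with a median log2 fold change of 0.23. On log2(TPM + 1) 0 were called higher and 1 lower by limma-trend, and the median was 0.01, where all genes lay at -0.19. Of the 8 octamer subunits 4 rose (EIF3E, EIF3H, EIF3K and EIF3M) and 1 fell (EIF3A), with a median of 0.32, and of the 5 peripheral subunits EIF3I rose. With DMSO replicate 2 left out, 8 were higher and 2 lower (61.5% and 15.4%, against 26.4% and 30.3% of all genes).

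EIF3A, the long scaffold subunit at the base of the octamer, measured 625, 958 and 613 CPM in DMSO and 437, 461 and 457 CPM in ST. It was the only subunit called lower with all libraries. The difference was -0.70 ± 0.18 log2 units (edgeR adjusted p = 0.0147). It was -0.46 without DMSO replicate 2, the highest library, and the call was lost when any 1 ST library was left out (edgeR adjusted p from 0.0525 to 0.0639).

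EIF3K, a small octamer subunit, stood at 191, 157 and 234 CPM in DMSO and at 338, 352 and 367 CPM in ST. EIF3I, a WD-repeat subunit of the peripheral module, stood at 256, 237 and 287 CPM in DMSO and at 427, 445 and 459 CPM in ST. For both genes every ST library was above every DMSO library. Log2 fold changes were 0.86 ± 0.15 for EIF3K (edgeR adjusted p = 0.00289) and 0.77 ± 0.11 for EIF3I (edgeR adjusted p = 0.0013). Reads of EIF3I per read of EIF3A were 0.409, 0.248 and 0.469 in DMSO and 0.977, 0.966 and 1.004 in ST, a difference of 1.44 in mean log2 ratio.

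EIF3E, a PCI-domain subunit, stood at 283, 320 and 201 CPM in DMSO and at 426, 432 and 388 CPM in ST. The arms did not overlap, and the log2 fold change was 0.63 ± 0.17 (edgeR adjusted p = 0.0184). EIF3H, an MPN-domain subunit, rose from 347 ± 76.1 to 511 ± 25.2 CPM (0.56 log2 units, edgeR adjusted p = 0.0234), and EIF3M from 209 ± 39.4 to 286 ± 16.2 CPM (0.45, edgeR adjusted p = 0.0409). These 3 calls lay close enough to the threshold to be lost in some fits with 5 libraries, while the direction was kept in all of them, with log2 fold changes of 0.50 to 0.77 for EIF3E, 0.47 to 0.74 for EIF3H and 0.37 to 0.60 for EIF3M. EIF3E lost its call without DMSO replicate 1, ST replicate 1 or ST replicate 2 (edgeR adjusted p from 0.0519 to 0.0707) and EIF3H without DMSO replicate 1 or any 1 ST library (0.0613 to 0.0879). EIF3M lost it without any 1 library other than DMSO replicate 2 (0.0515 to 0.147) and under scaling by library totals (edgeR adjusted p = 0.055).

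The remaining 7 subunits did not pass. EIF3F was at 0.00 log2 units, EIF3D at 0.01, EIF3L at 0.04, EIF3C at 0.19, EIF3J at 0.23, EIF3G at 0.27 (edgeR adjusted p = 0.101) and EIF3B, the RNA-binding core of the peripheral module, at -0.11. Without DMSO replicate 2, EIF3D, EIF3G and EIF3J were also called higher and EIF3B lower. The subunits of eIF3 therefore did not move as a block at the level of mRNA, and their log2 fold changes ran from -0.70 to 0.86.

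Of the 12 genes of the eIF4 group, which recognise the cap, unwind the leader and regulate both steps, 1 rose (8.33%) and 5 fell (41.7%), with a median log2 fold change of -0.40, against 19.0% and 21.8% of all genes. When DMSO replicate 2 was left out, 1 rose and 8 fell (66.7%), against 26.4% and 30.3% of all genes. The genes that fell were the 3 eIF4G scaffolds, EIF4A3 and EIF4EBP2.

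EIF4G1 (chr3:184314495-184335358, plus strand, GRCh38), the main scaffold that joins the cap-binding protein to eIF3, measured 1096, 1332 and 1213 CPM in DMSO and 648, 645 and 679 CPM in ST. EIF4G3, its paralogue, measured 78.4, 122 and 74.6 CPM in DMSO and 41.6, 42.0 and 46.9 CPM in ST. Neither gene had an ST library that reached the lowest DMSO library. Log2 fold changes were -0.88 ± 0.12 for EIF4G1 (edgeR adjusted p = 7.49e-04) and -1.07 ± 0.20 for EIF4G3 (edgeR adjusted p = 0.00326). EIF4G2, a scaffold that lacks the site for the cap-binding protein, fell from 1278 ± 297 to 880 ± 17.4 CPM, a change of -0.54 ± 0.16 log2 units (edgeR adjusted p = 0.03). Its fall was -0.34 without DMSO replicate 2, and it lost the call without DMSO replicate 1 or any 1 ST library (edgeR adjusted p from 0.051 to 0.105) and after removal of the length trend (-0.25, edgeR adjusted p = 0.177).

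The repressors of the cap-binding protein moved in opposite directions. EIF4EBP1, which releases eIF4E when mTOR phosphorylates it, stood at 46.6, 46.3 and 63.8 CPM in DMSO and at 87.6, 87.6 and 94.3 CPM in ST, with no overlap. The log2 fold change was 0.78 ± 0.15 (edgeR adjusted p = 0.00429), and 0.32 after removal of the length trend, where it no longer passed (edgeR adjusted p = 0.0827). EIF4EBP2 fell from 224 ± 51.2 to 142 ± 1.73 CPM, a change of -0.66 ± 0.16 log2 units (edgeR adjusted p = 0.0126). That call was lost without any 1 ST library (edgeR adjusted p from 0.0513 to 0.0559).

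Reads of EIF4EBP1 per read of EIF4EBP2 were 0.235, 0.164 and 0.337 in DMSO and 0.614, 0.611 and 0.674 in ST. This ratio, a comparison within each library, separated the arms by 1.43 in mean log2 ratio. EIF4E, the cap-binding protein itself, measured 74.8, 77.6 and 54.4 CPM in DMSO and 57.2, 62.1 and 56.8 CPM in ST. DMSO replicate 3 lay below all ST libraries, and the log2 fold change of -0.23 ± 0.15 did not pass (edgeR adjusted p = 0.26). Reads of EIF4EBP1 per read of EIF4E were 0.624, 0.597 and 1.18 in DMSO and 1.53, 1.41 and 1.66 in ST.

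EIF4A1, the helicase of the cap complex, was counted low, at 16.2, 7.25 and 17.8 CPM in DMSO and 9.88, 9.16 and 9.53 CPM in ST. The ST values lay between DMSO replicate 2 and the other DMSO libraries, and the log2 fold change of -0.53 ± 0.30 did not pass (edgeR adjusted p = 0.186). It was -0.84 without DMSO replicate 2 (edgeR adjusted p = 6.37e-05). In GENCODE release 29, 48.6% of its exon bases are shared with another gene on the same strand, and whether reads there were counted for EIF4A1 is not given in the sources used here. EIF4A3, a helicase of the exon junction complex, fell from 490 ± 112 to 321 ± 12.7 CPM (-0.61 log2 units, edgeR adjusted p = 0.0208). Its call was lost without any 1 library other than DMSO replicate 2 (edgeR adjusted p from 0.0564 to 0.0852). EIF4A2 (0.05), EIF4E2 (0.22), EIF4H (-0.08) and EIF4B (-0.27, edgeR adjusted p = 0.0648) did not pass. EIF4B and EIF4H, both helpers of the helicase, were called lower without DMSO replicate 2, at -0.25 and -0.32.

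Both poly(A)-binding proteins, which bind the mRNA tail and contact eIF4G, fell. PABPC1 measured 1832, 3607 and 1820 CPM in DMSO and 954, 942 and 937 CPM in ST. DMSO replicate 2 was far above the other DMSO libraries, and all 3 of these were above ST. The log2 fold change was -1.36 ± 0.26 (edgeR adjusted p = 0.00395), and -0.96 without that library (edgeR adjusted p = 3.86e-08). PABPC4 (chr1:39560816-39576790, minus strand) measured 533, 545 and 576 CPM in DMSO and 269, 274 and 272 CPM in ST. The libraries of each arm were close together, and the log2 fold change was -1.02 ± 0.10 (edgeR adjusted p = 2.52e-04).

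**Figure D2:**
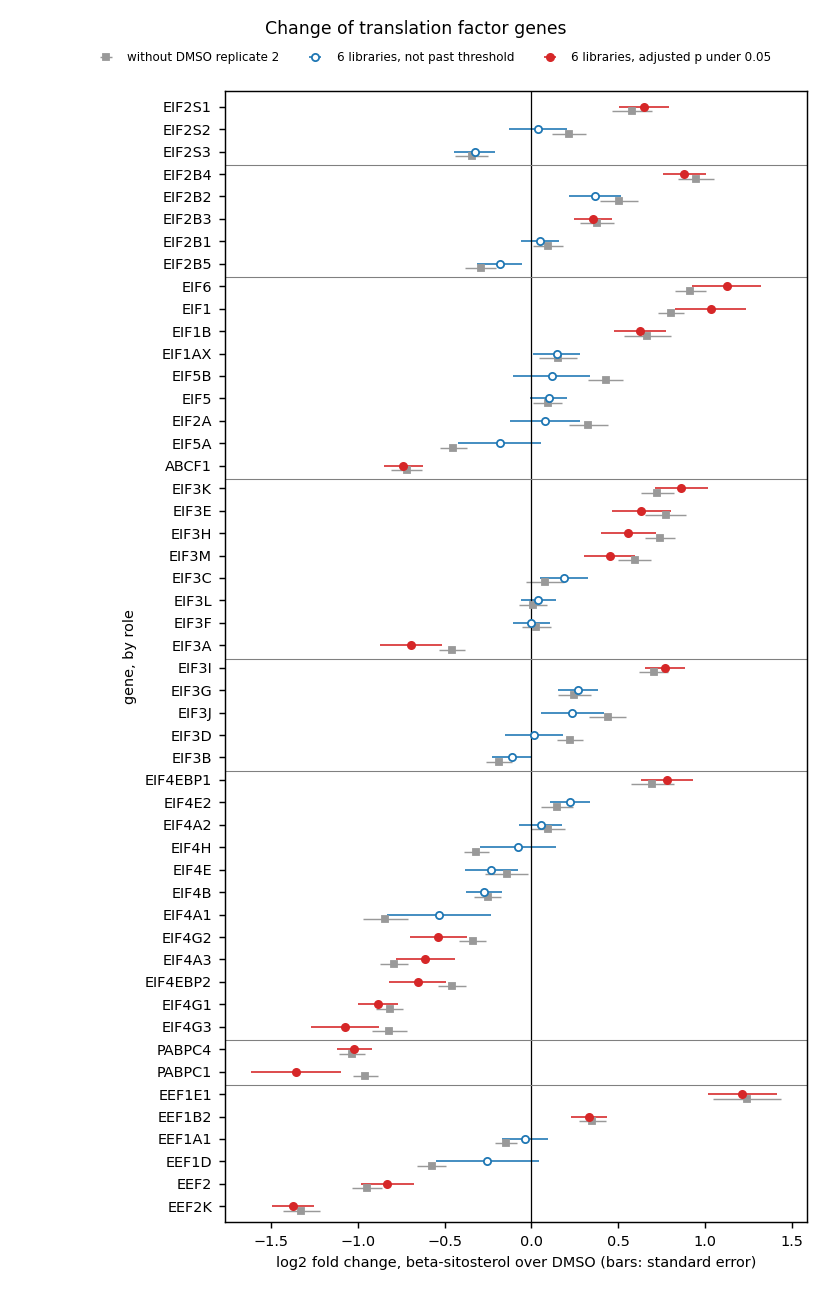
Log2 fold change of ST over DMSO for the 50 tested members, grouped by role, with bars of 1 SE. Red points passed the adjusted p of 0.05 in edgeR, open blue points did not, and grey squares give the value without DMSO replicate 2. The eIF4G scaffolds, PABPC1, PABPC4, EEF2 and EEF2K lie left of 0, and EIF1, EIF6, EIF2B4, EIF3I, EIF3K and EEF1E1 right of it.

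Elongation had 2 of 6 tested genes higher and 2 lower (33.3% each, against 19.0% and 21.8% of all genes), with a median log2 fold change of -0.15. EEF2, the translocase, measured 8814, 7760 and 11264 CPM in DMSO and 5356, 5060 and 5253 CPM in ST. The lowest DMSO library exceeded the highest ST library, and the log2 fold change was -0.83 ± 0.15 (edgeR adjusted p = 0.00361). On log2(TPM + 1) the fall of EEF2 did not pass (limma-trend adjusted p = 0.0812). EEF2K (chr16:22206282-22288732, plus strand), the kinase that inhibits eEF2 by phosphorylation, measured 55.5, 63.2 and 58.1 CPM in DMSO and 23.7, 23.2 and 21.4 CPM in ST. Its log2 fold change of -1.37 ± 0.12 had the smallest adjusted p of all members (edgeR adjusted p = 1.69e-04). The translocase and its inhibitory kinase were thus both lower, and reads of EEF2K per read of EEF2 differed by -0.56 in mean log2 ratio.

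EEF1A1, which carries aminoacyl-tRNA to the ribosome, measured 20473, 16261 and 20423 CPM in DMSO and 18904, 18219 and 18518 CPM in ST. The ST values lay inside the DMSO range. The difference was -0.04 ± 0.13 log2 units (edgeR adjusted p = 0.835). Reads of EEF2 per read of EEF1A1 were 0.431, 0.477 and 0.552 in DMSO and 0.283, 0.278 and 0.284 in ST, so the balance of these abundant transcripts differed by -0.78 in mean log2 ratio.

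Of the exchange factors that recharge eEF1A, EEF1B2 rose from 609 ± 23.2 to 767 ± 31.0 CPM, a change of 0.33 ± 0.10 log2 units (edgeR adjusted p = 0.0314). The call was lost after removal of the length trend (0.25 log2 units, edgeR adjusted p = 0.0986), with no filter on low counts (edgeR adjusted p = 0.0761) and without DMSO replicate 1 or any 1 ST library (0.0824 to 0.141), with log2 fold changes of 0.30 to 0.38 over the 6 fits that leave out a library. EEF1D stood at 303 ± 130 CPM in DMSO and 254 ± 8.82 CPM in ST, a log2 fold change of -0.25 that did not pass (edgeR adjusted p = 0.519). DMSO replicate 2 was its lowest library, and without it EEF1D was called lower at -0.57 (edgeR adjusted p = 3.48e-05). EEF1E1, also called AIMP3, a scaffold of the multi-tRNA synthetase complex, measured 4.46, 3.89 and 2.83 CPM in DMSO and 9.20, 8.55 and 8.18 CPM in ST. The arms were clearly apart at this low level, a difference of 1.21 ± 0.20 log2 units (edgeR adjusted p = 0.00203).

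The TOP-type members, 10 genes listed from textbook knowledge (EEF1A1, EEF1B2, EEF1D, EEF1G, EEF2, EIF3E, EIF3F, EIF3H, EIF4B and PABPC1), did not share a direction. Of the 9 tested, 3 rose (EEF1B2, EIF3E and EIF3H), 2 fell (EEF2 and PABPC1) and 4 did not pass, with a median log2 fold change of -0.04, equal to that of all genes at this precision. The shares were 33.3% higher and 22.2% lower, against 19.0% and 21.8% of all genes. Leaving out DMSO replicate 2 gave 3 higher and 4 lower (33.3% and 44.4%, against 26.4% and 30.3% of all genes). These are mRNA levels, and translation of TOP mRNAs was not measured.

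**Figure D3:**
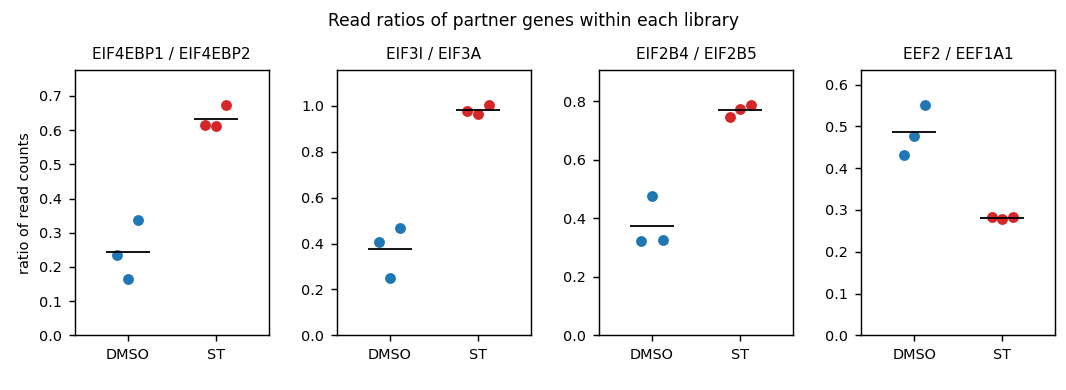
Ratio of read counts of 2 members within each library, in 4 panels, with a point per library and a line at the mean of each arm. In each panel the 3 ST points lie apart from the 3 DMSO points, with EIF4EBP1 over EIF4EBP2, EIF3I over EIF3A and EIF2B4 over EIF2B5 higher in ST and EEF2 over EEF1A1 lower. The pairs were picked without a rule set in advance.

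Some counts may cover a gene only in part, since counting can drop or split reads in shared exons. In GENCODE release 29, 7 of the 51 members share over 10% of their exon bases with another gene on the same strand, and 33 overlap a gene on either strand. EEF1G shares 99.9% of its exon bases, and its zeros say nothing of its expression. The shares were 41.1% for EIF3L, 18.7% for EEF1E1, 17.4% for EIF6, 16.4% for EEF1B2 and 10.5% for EIF4A2. Strand use in counting is not stated, and 34.0% of the exon bases of EEF1D overlap another gene on either strand. EIF3C, EEF1A1, EIF5A and PABPC1 have near-identical copies, of which EEF1A1P5 held 3571 to 4184 counts per library and EIF3CL 117 to 173. How reads common to such copies were counted is not given in the sources used here, so the values of these members are uncertain.

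Levels between genes were compared on the deposited TPM scale, which is per length. EEF2 had the highest TPM of the members in DMSO, at 4405 to 9985, followed by EEF1A1 at 2627 to 5176. Within each DMSO library EEF2 was above EEF1A1 (7831 against 5176, 4405 against 2627 and 9985 against 5152 TPM). In the ST libraries it was slightly below (3481 against 3497, 3232 against 3312 and 3315 against 3325 TPM). The length implied by count over TPM was 3.51 times that of EEF2 for EEF1A1, where the annotated exon bases give 1.48. The order of EEF2 and EEF1A1 in DMSO may therefore rest on how the TPM values were computed, which is not given. For EIF4G1 the implied length was 16.5 times that of EEF2, where the annotated exon bases give 2.05. Comparisons between genes thus carry an error that was not measured.

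Regulators outside the 51 members were looked up from lists that were chosen with earlier results of these data known. Of 10 tested genes of the eIF2 kinases and phosphatase, PPP1R15A rose and PPP1R15B fell, where 19.0% of all genes rose and 21.8% fell. PPP1R15A, the stress-induced subunit that directs a phosphatase to eIF2 alpha, went from 43.8 ± 3.76 to 96.0 ± 4.80 CPM (1.13 log2 units, edgeR adjusted p = 3.23e-04). PPP1R15B, its constitutive counterpart, went from 136 ± 9.98 to 105 ± 1.98 CPM (-0.37 log2 units, edgeR adjusted p = 0.0274). EIF2S1 and PPP1R15A, the substrate and the subunit that brings its phosphatase, were thus both higher in ST, and none of the 4 eIF2 kinases passed with all libraries. EIF2AK1 stood at -0.43 (edgeR adjusted p = 0.0503) and was called lower without DMSO replicate 2 (edgeR adjusted p = 0.0154). In that fit 2 genes of the list were higher and 3 lower, where 26.4% of all genes were higher and 30.3% lower. DESeq2 on all libraries called 2 genes of the list higher and 1 lower.

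Of 16 tested TOR and cap regulators, 3 rose and 8 fell, with a median log2 fold change of -0.29, where 19.0% of all genes rose and 21.8% fell. Omitting DMSO replicate 2, 4 were higher and 8 lower (26.4% and 30.3% of all genes). RPTOR, the subunit of mTORC1 that recruits substrates such as EIF4EBP1, fell from 92.2 ± 11.3 to 32.3 ± 1.94 CPM (-1.51 log2 units, edgeR adjusted p = 1.69e-04). LARP1, which binds TOP starts, fell from 751 ± 67.3 to 339 ± 0.589 CPM (-1.15, edgeR adjusted p = 2.40e-04), MTOR from 223 ± 6.42 to 147 ± 4.86 CPM (-0.60, edgeR adjusted p = 0.00253), and LARP4B from 158 ± 7.33 to 106 ± 4.07 CPM (-0.57, edgeR adjusted p = 0.00375). The genes that rose were RPS6KB2, PDCD4 and EIF4E3, named here after their values were seen.

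Of 19 further tested genes of initiation, termination and recycling, 3 rose and 3 fell, where 19.0% of all genes rose and 21.8% fell. Without DMSO replicate 2 it was 6 and 8, where 26.4% of all genes were higher and 30.3% lower. MCTS1, which acts in reinitiation with DENR, rose from 25.8 ± 6.67 to 83.7 ± 4.48 CPM (1.70 log2 units, edgeR adjusted p = 4.03e-04). TPT1, itself a classic TOP mRNA, rose from 893 ± 158 to 2181 ± 99.2 CPM (1.29, edgeR adjusted p = 4.82e-04). DDX3X, a helicase of structured leaders, and GSPT1, the termination factor eRF3a, fell by 0.59 and 0.44 on the log2 scale (edgeR adjusted p = 0.0048 and 0.0126). In the multi-tRNA synthetase complex, 8 of 10 genes were listed at 0 and AIMP1 rose from 54.6 ± 5.66 to 91.9 ± 3.65 CPM (0.75, edgeR adjusted p = 0.002). None of 9 tested mitochondrial translation factors passed in edgeR, where 40.8% of all genes did, or in DESeq2, and 1 was higher at an unadjusted p under 0.05. Without DMSO replicate 2, edgeR called 2 of these factors higher and 1 lower, where 26.4% of all genes were higher and 30.3% lower.

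Coding length varied with the change. Over the 50 tested members, the Spearman correlation between the longest coding length in GENCODE release 29 and the log2 fold change was -0.599, and over 10896 tested genes it was -0.327. Genes are not independent replicates and share the same 6 libraries, so these are descriptions. Members that rose had a median coding length of 840 bases, those that fell 2535 and the others 1224, and over all genes the medians were 987, 1908 and 1434. Within complexes the pattern was not uniform. EIF3K (654 bases, higher) and EIF3A (4146 bases, lower) followed it, whereas EIF3J (774 bases) did not pass and EIF3E (1335 bases) rose. In eIF2B, EIF2B1 (915 bases) stood at 0.05 and the longer EIF2B4 (1632 bases) at 0.88 log2 units. The repressors EIF4EBP1 (354 bases, higher) and EIF4EBP2 (360 bases, lower) are alike in coding length and moved apart, but not in annotated exon bases (1073 and 7257) or in the length implied by count over TPM (0.285 and 1.21 times that of EEF2). Leaving out DMSO replicate 2, the correlation was -0.544 for members and -0.272 for all genes.

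When a smooth trend of log2 counts on the length implied by the authors' TPM was removed in each library, 10 members were higher and 11 lower (42.0%), against a background of 41.5% of all genes (18.0% higher, 23.5% lower). EIF1B, EIF2B3, EIF4EBP1, EIF4G2 and EEF1B2 lost their calls and EIF2S3 was called lower. The correlation with coding length was then -0.465 for members and -0.198 for all genes. The length whose trend was removed is not coding length, so these values do not show what removing a trend on coding length itself would leave. Whether RNA quality or library preparation had a part in the relation with coding length was not tested.

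**Figure D4:**
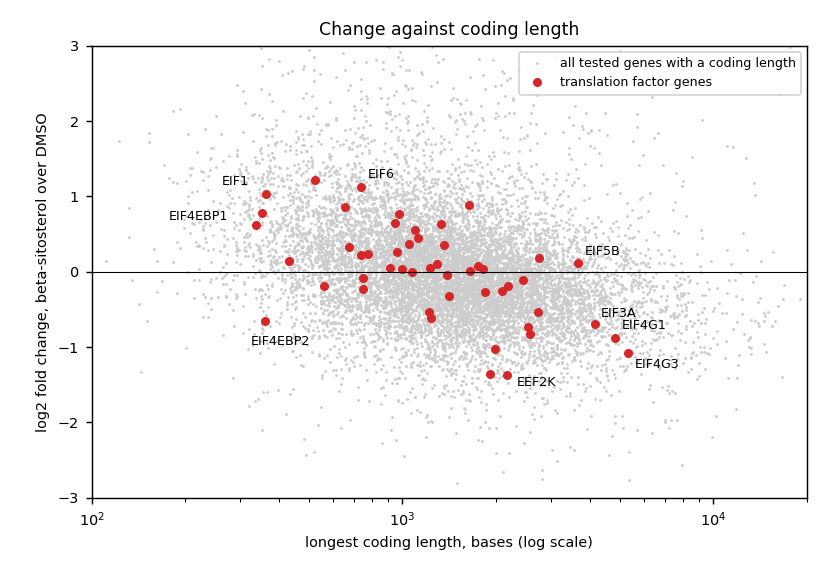
Log2 fold change of ST over DMSO against the longest coding length (log axis, bases), for tested genes with a coding length in grey and the 50 tested members in red, some of them named. 110 genes lie beyond the plotted range of ±3 log2 units. Members with short coding regions such as EIF1, EIF6 and EIF4EBP1 lie above 0 and long ones such as EIF4G1, EIF4G3 and EIF3A below it, with EIF4EBP2 low at a short length.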

How the data were processed

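RNA-seq of 3 DMSO and 3 ST libraries was analysed. The deposited counts are whole reads for each gene without scaling. TPM is a scale per gene length and per library, and how the authors computed their TPM values is not given. Per the submitters' processing notes, fastp 0.23.2, STAR 2.7.10, featureCounts 2.0.1, StringTie 2.2.1 and GRCh38 were used, and what each did is not given. The annotation, strand use and treatment of multi-mapping reads are likewise not given in the sources used here. TRIzol was used to extract total RNA, per the labels' protocols.

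Of 65807 rows, 61 repeated symbols were dropped. Differences were tested by edgeR 4.0.16 in R 4.3.3, with its quasi-likelihood method (TMM factors, filterByExpr, treatment as the only term, two-sided, Benjamini-Hochberg over all tested genes, threshold 0.05). SE is the size of the log2 fold change divided by the root of the F statistic, and CPM uses TMM factors. Depth was 26453281 to 35565620 counts per library. Alternatives were RLE factors, library totals, no filter, 1 CPM in 3 libraries, DESeq2 1.42.0, limma-trend (limma 3.58.1) on log2(TPM + 1), a replicate block, a length trend removed (loess, span 0.3), protein-coding genes alone and each library left out.

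The members and lists were chosen with earlier results of these data known. Values in every library are given for the 3 called members with the smallest p per role group and for 14 set members, and up to 4 called genes per list of other genes are named by smallest p. Positions and overlaps are from GENCODE release 29 and start windows from RefSeq (GRCh38.p14).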

Additional observations from a re-analysis of the deposited data

How the results depend on the processing

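All 25 calls among the members held with RLE factors, 1 CPM in 3 libraries, DESeq2, protein-coding genes alone and without DMSO replicate 2. EIF4G1, EIF4G3, EEF1E1, EEF2K, PABPC1, PABPC4 and ABCF1 were called in all 16 alternatives. On log2(TPM + 1) with limma-trend 10 of the 25 calls held. There, 1 member was higher, with 0 of eIF2B, eIF3, eIF4 and TOP-type members higher, 1 elongation gene higher and 1 lower, 1 TOP-type member lower, and 713 of all genes higher. Without a filter, 1 eIF2B and 1 elongation gene were higher, and the share of all genes called in that fit is not given here. With the length trend removed, 1 eIF2B, 0 eIF4 and 1 elongation gene were higher. In a fit with that trend removed that also omitted DMSO replicate 2, which was chosen after seeing the data, 21 members were higher and 17 lower (2973 of all genes higher and 3531 of all genes lower), with 1 eIF2B and 4 TOP-type members lower and 2 eIF4 genes higher. In these fits the cause was not tested.

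Leaving out each library in turn kept 15 of the 25 calls in all 6 fits. Counts higher and lower ranged from 8 to 20 and from 7 to 19 for the members, from 1 to 3 and from 0 to 1 for eIF2B, from 2 to 8 and from 0 to 2 for eIF3, and from 1 to 1 and from 2 to 8 for eIF4. They ranged from 1 to 2 and from 2 to 3 for elongation, from 0 to 3 and from 2 to 4 for TOP-type members, and from 1501 to 3091 and from 1593 to 3549 over all genes. Fewer samples enter each of these fits.

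The replicate block left 12 members higher and 11 lower, with 1 eIF2B and 1 elongation gene higher (EIF2B3 and EEF1B2 missed the threshold, edgeR adjusted p = 0.056 and 0.0681). The share of all genes called with the block is not given here, so these counts have no background beside them. Deviations from the group means of same-numbered libraries correlated at 0.0388, 0.101 and 0.154, so the numbers were not taken to pair the samples. Each library correlated best with its own number, a hint from the data and not from the design.

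No direction changed between the main fit and an alternative for a member that passed in either of them. On log2(TPM + 1) the log2 fold change became -0.10 for EIF1AX, -0.13 for EIF2A, -0.20 for EIF2B1, -0.19 for EIF2S2, -0.0631 for EIF3C, -0.22 for EIF3D, -0.25 for EIF3F, -0.21 for EIF3L, -0.19 for EIF4A2, -0.0337 for EIF4E2, -0.15 for EIF5 and -0.0842 for EIF5B. With the length trend removed it became -0.0709 for EIF1AX, -0.0855 for EIF2B1, -0.36 for EIF2S2, -0.0342 for EIF3D, 0.0572 for EEF1A1 and 0.0321 for EEF1D. With DMSO replicate 2 also left out it became -0.00646 for EIF1AX, -0.00566 for EIF2B1 and -0.0441 for EIF2S2. Library totals gave -0.00744 for EIF3F. Leaving out single libraries, without DMSO replicate 1, DMSO replicate 3 or an ST replicate, changed the sign of 11 members. Their log2 fold changes ranged from -0.0725 to 0.329 for EIF2A, from -0.0806 to 0.216 for EIF2S2, from -0.187 to 0.00308 for EIF3B, from -0.109 to 0.223 for EIF3D, from -0.0701 to 0.0722 for EIF3F, from -0.00999 to 0.109 for EIF4A2, from -0.319 to 0.121 for EIF4H, from -0.45 to 0.063 for EIF5A, from -0.0333 to 0.427 for EIF5B, from -0.146 to 0.0544 for EEF1A1 and from -0.573 to 0.0427 for EEF1D.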
